A study of Mus musculus with 32 samples.

Results

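Cells of 9 B cell lymphoma lines were compared here with untreated splenic B cells of the same genotype. Both groups carry the strain label ATMKO.CD3epsilonKO, so both sides lack ATM, a kinase of the DNA damage response, and CD3 epsilon, a chain of the receptor of T cells, and the groups differ in being lymphoma or normal. The members were chosen by their labels: 11 arrays of lymphoma lines 1001, 1004, 1007, 1010, 1013, 1016, 1019, 1036 and 1039, and 3 arrays of untreated ATMKO splenic B cells (repeats 1, 2 and 3), which makes 14 of the 32 arrays in the series. Repeat 1 of line 1039 was left out, because only 21.9% of its sample-channel spots were above background, against 49.9% to 60.7% on the arrays used. The arrays of cells with intact ATM, of germinal centre cells, of stimulated cells and of drug-treated cells do not enter the main comparison. Total RNA was extracted with TRIzol, the sample was labelled in Cy5, and a common pool was labelled in Cy3. The pool mixed RNA of unstimulated and stimulated splenic B cells of both ATM genotypes, of tumours of the ATMKO.CD3epsilonKO strain and of germinal centre cells. A level below is therefore a log2 ratio to that pool, and a positive one means more RNA per unit of total RNA than in the pool. The lymphoma samples are cell lines that came from spleen and the normal samples are primary cells, so the change from tissue to culture cannot be told apart from the change to lymphoma. The labels name no age for the animals and no source mouse for the 3 untreated arrays, and the series counts 5 of its 7 ATMKO arrays of normal cells as technical repeats, so the 3 were treated as 1 sample. The p-values therefore measure the spread among the lines and not that among mice.

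A resting follicular B cell is small, does not divide, and circulates between blood, spleen and lymph nodes under the direction of homing receptors and of the transcription factors FOXO1 and KLF2. After antigen binds its receptor, the cell turns on immediate early genes, grows, copies its DNA and divides, and in a germinal centre it switches its antibody class. ATM senses double-strand breaks such as those made during class switching and passes the signal to p53, and its loss predisposes mice and people to lymphoid tumours. Dividing lymphocytes are known to draw on glycolysis, on cholesterol and fatty acid synthesis and on amino acid synthesis.

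The 9 lines were fitted against the untreated sample in limma, with repeats averaged first, so the spread came from the lines, and the untreated sample was assumed to vary as they do. Among 21436 genes tested, 5865 (27.4%) had a Benjamini-Hochberg adjusted p under 0.05 and are said to be called. In the lymphoma lines 2057 (9.60%) were called higher and 3808 (17.8%) lower, so that 35.1% of the calls were higher. The counts called in each list below are to be read beside these shares. With the scanner's own processed log ratio the split was 2984 higher and 3080 lower, or 49.2% higher, and with median centring 25.5% were higher. With the deposited log ratios, median centred, 39.6% were higher. These scalings moved the median of all genes by 0.10, -0.16 and -0.04 on the log2 scale, while it stood at -0.01 in the main fit. The profiles of the lines correlated with the mean of the other lines at r = 0.82 to 0.87 across genes and with the untreated sample at r = -0.48 to -0.32. Some lines were more alike than others. The arrays of lines 1010 and 1013 correlated at r = 0.924 and 0.895, and those of lines 1016 and 1019 at r = 0.873. Arrays of other pairs of lines correlated at r = 0.67 to 0.81. The fit took all 9 lines as separate samples. The labels give the dyes, and the pool held RNA of both kinds of cell, so the direction the labels give was kept.

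Untreated repeats 2 and 3 correlated at r = 0.975 across genes, while repeat 1, on another slide, correlated with them at r = 0.80 and 0.81. The SD of the difference between repeats over genes was 0.144 for repeats 2 and 3 and 0.392 and 0.377 for the pairs with repeat 1. The SD of a gene over the 9 lines had a median of 0.241, which is another measure and cannot be compared directly with those of the repeats. Slides 3 and 4 held both groups, with repeat 1 on slide 3 and repeats 2 and 3 on slide 4. The median is given within both slides (4 lines on slide 3 and 3 on slide 4) for most lists. It is not given for ribosome biogenesis or for the markers of other cells. Against repeat 1 alone 5385 genes were called, and without it 6263.

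**Figure D1:**
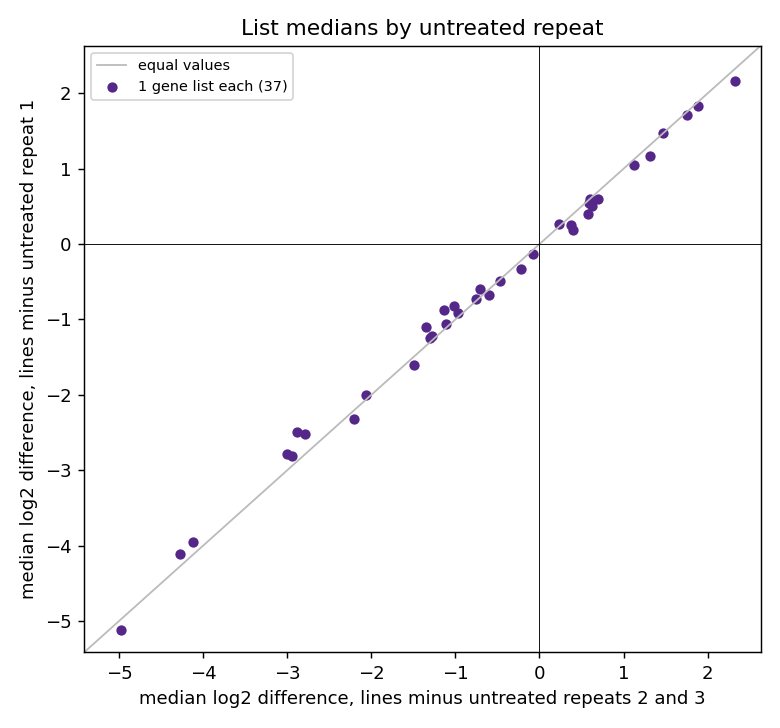
Median log2 difference of each of 37 gene lists, lymphoma lines minus untreated repeat 1 on the vertical axis and lymphoma lines minus the mean of untreated repeats 2 and 3 on the horizontal axis, with a line of equal values. The lists run from neutrophil markers, at -5.11 and -4.98, to cholesterol synthesis, at 2.16 and 2.33, and every point lies near the line.

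The deleted genes were read first. The Atm transcript, measured by a probe at chr9:53245871-53245930 (mm9, as all probe positions below), lay at -1.54, -1.28 and -0.51 in the lowest, median and highest line, against -0.24, -0.41 and -0.36 on untreated arrays 1, 2 and 3. All lines were lower than all untreated arrays, yet the difference of -0.82 ± 0.36 (SE) was not called (adjusted p 0.12). A second Atm probe gave a mean of -0.77 ± 0.31 (SD, n = 9 lines) against -0.28, -0.53 and -0.47. On that probe the lines ran from -1.11 to -0.23, so the groups overlapped. Cd3e lay at -0.64, 0.14 and 1.15 in the lymphoma lines and at 0.59, 0.93 and 0.84 in untreated cells, and was not called (difference -0.58 ± 0.48, adjusted p 0.42). Both probes were above background on all 14 arrays. The labels do not say which exons were removed, so a signal from either probe does not check the deletion.

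Both groups carried B cell transcripts. All 18 genes of the pan-B cell list were above background on every lymphoma array and every untreated array. The median difference of the list was -0.79 against -0.01 for all genes, with 1 member called higher and 8 lower (9.60% and 17.8% of all genes). Without line 1016 the list had 5 members called lower, and without line 1039 it had 2 called higher. The median was -0.83 on slide 3 and -0.85 on slide 4, where none was called higher and 4 lower. Cd79b, a signalling chain of the B cell receptor, lay at -0.60, 0.38 and 1.06 in the lymphoma lines and at 0.58, 0.51 and 0.30 in untreated cells. The groups overlapped, and the difference of -0.24 ± 0.49 was not called (adjusted p 0.77). Ms4a1, which encodes CD20, also overlapped, with -0.44, 0.36 and 0.94 in the lines against 0.45, 0.39 and 0.37 (difference -0.06 ± 0.42, adjusted p 0.94).

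Coreceptors moved in both directions. Of 16 coreceptor and inhibitory receptor genes, 1 was called higher and 8 lower, with a median difference of -1.29 (-1.33 on slide 3 and -1.12 on slide 4). Cr2, a complement receptor (chr1:196965532-196965591), lay at -6.13, -5.57 and -4.07, against 2.02, 2.08 and 2.01 in untreated cells. Line 1001 was the highest of the lines and still far below the untreated arrays, and the difference was -7.49 ± 0.61 (adjusted p 1.2e-05). Lilrb4a, an inhibitory receptor, differed by -6.38 ± 0.27 (adjusted p 1e-07), and its fitted difference ran from -7.00 to -4.47 over the alternatives. The member called higher was Cd22, a sialic acid binding inhibitor of receptor signalling, which lay at -0.06, 0.56 and 1.52 in the lines and at -1.57, -1.47 and -1.37 in untreated cells (difference 2.12 ± 0.53, adjusted p 0.014). No member was called higher within either slide.

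Of 26 genes of B cell receptor signalling tested, 4 were called lower and none higher, against 17.8% and 9.60% of all genes. The median difference was -0.47 (-0.54 on slide 3, -0.27 on slide 4). The 4 were Vav3 (-2.64), Syk (-1.58), Ptprc (-1.26) and Btk (-1.17). Btk, the kinase that ibrutinib inhibits, lay at -1.81, -1.44 and -1.26 in the lymphoma lines, against -0.21, -0.41 and -0.34 in untreated cells, with no overlap (difference -1.17 ± 0.21, adjusted p 0.0021). Ptprc, the phosphatase CD45, was at -1.44, -0.75 and -0.09 in the lines and at 0.71, 0.29 and 0.37 in untreated cells. Its call was lost without untreated repeat 1 (difference -1.14) and without line 1001, 1016 or 1039 (-1.28, -1.22 and -1.25).

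**Figure D2:**
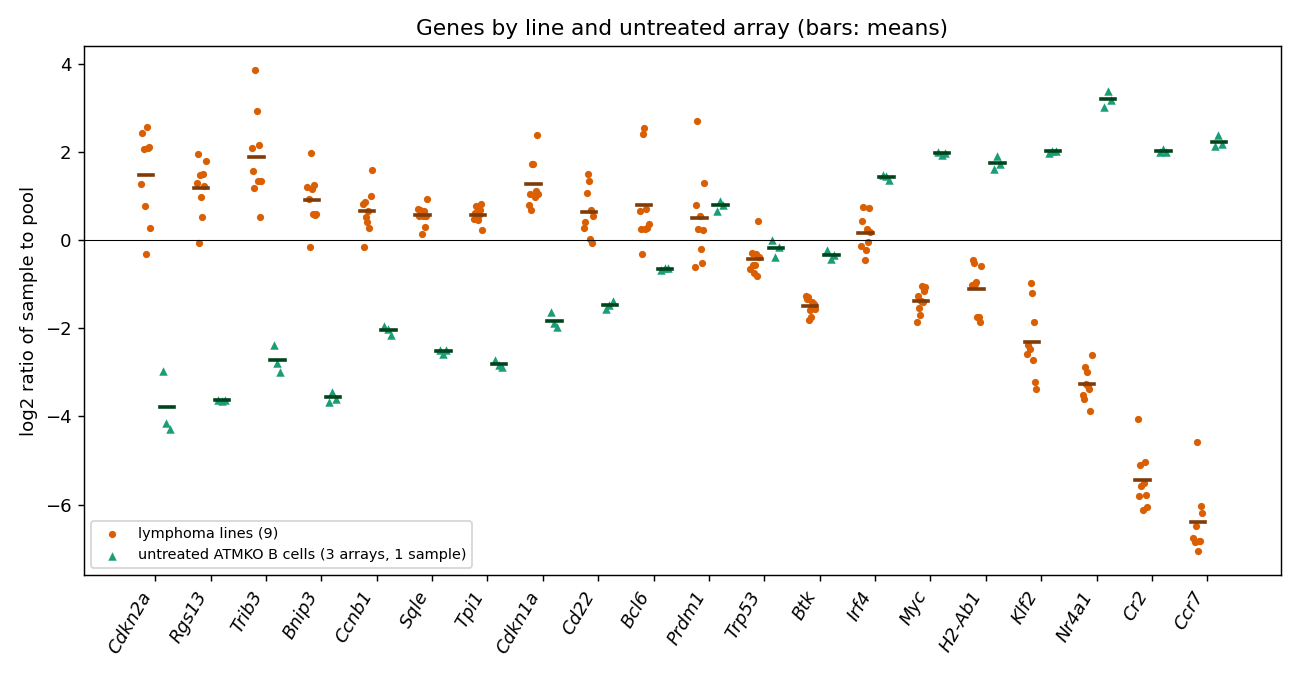
Log2 ratio of sample to pool for 20 genes on the vertical axis, with circles for the 9 lymphoma lines, triangles for the 3 untreated arrays to their right, and bars for the means. The groups do not overlap for genes such as Rgs13 (lines -0.05 to 1.97, untreated near -3.63) and Ccr7 (lines -7.06 to -4.57, untreated 2.15 to 2.40), and they overlap for Prdm1 and Trp53.

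Genes of resting follicular cells were low in the lines. Of 22 tested, 17 were called lower and 1 higher, the median difference was -4.06, and 19 members had every line below every untreated array. The list's median level ran from -3.21 to -1.90 over the lines and from 0.93 to 0.98 over the untreated arrays. The median difference was -4.15 on slide 3 and -3.87 on slide 4. Bach2, a transcription repressor of mature B cells, lay at -6.27, -5.59 and -2.46 in the lymphoma lines and at -0.25, -0.25 and -0.04 in untreated cells (difference -5.13 ± 1.07, adjusted p 0.005). It was above background on 6 of 11 lymphoma arrays, and line 1004 stood above the other lines. Its fitted difference ran from -6.41 to -3.28 over the alternatives. The member called higher was Tnfrsf13c, the receptor for the survival factor BAFF, at -0.04, 0.32 and 0.56 in the lines against -1.06, -1.23 and -1.11 in untreated cells (difference 1.46 ± 0.20, adjusted p 0.00042).

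Homing and egress receptors overlapped with that list in membership and were low as a group. Of 18 tested, 12 were called lower and 2 higher, with a median difference of -2.04 (-1.99 on slide 3, -2.11 on slide 4). Ccr7, the chemokine receptor for entry into lymph nodes and T cell zones (chr11:99005551-99005610), lay at -7.06, -6.76 and -4.57 in the lymphoma lines, against 2.15, 2.40 and 2.19 in untreated cells. Line 1010 was the highest of the lines and was still far below the untreated arrays, and the difference was -8.64 ± 0.72 (adjusted p 1.4e-05). S1pr1, the receptor for exit from lymphoid tissue, lay at -4.82, -2.70 and -1.82 against 1.91, 1.54 and 1.52 (difference -4.95 ± 1.11, adjusted p 0.0076). Ccr6 differed by -6.00 ± 0.32 (adjusted p 5.5e-07), and the oxysterol receptor gene Gpr183 by -5.06 ± 0.89 (adjusted p 0.0019). Cxcr4 and Cxcr5, which guide B cells within germinal centres and follicles, differed by -2.74 ± 0.43 and -1.90 ± 0.27 (adjusted p 0.00088 and 0.00047). The 2 members called higher were Cd44, an adhesion receptor of activated lymphocytes, and S1pr2, a receptor that holds germinal centre cells in place. Cd44 lay at 0.62, 1.01 and 1.60 in the lymphoma lines and at -1.31, -1.40 and -1.35 in untreated cells, with no overlap (difference 2.35 ± 0.33, adjusted p 0.00045). S1pr2 lay at -0.84, -0.34 and 0.12 against -1.76, -2.42 and -2.49 (difference 1.92 ± 0.30, adjusted p 0.00091).

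Genes under FOXO control, some of them also in the resting list, were lower on balance. Of 18, 9 were called lower and 2 higher, with a median of -1.53 (-1.72 on slide 3, -1.62 on slide 4). Klf2, a quiescence factor and an activator of S1pr1, lay at -3.37, -2.48 and -0.97 in the lymphoma lines, against 1.99, 2.03 and 2.04 in untreated cells (difference -4.33 ± 0.78, adjusted p 0.0021). Lines 1010 and 1013 had the 2 highest values, -0.97 and -1.20. The members called higher were Foxo3 (1.66 ± 0.43, adjusted p 0.016) and Cited2 (1.31).

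Markers of other blood cells moved with the same contrast, and their part in the falls above was not tested. In bulk RNA, fewer cells of a type and less RNA per cell cannot be told apart. Neutrophil markers were called lower in 12 of 13, with a list median level from -4.14 to -3.02 over the lines and from 0.99 to 1.18 over the untreated arrays. Erythroid markers were called lower in 13 of 15 (levels -2.57 to -2.20 in lines, 1.65 to 1.84 in untreated cells), and NK cell markers in 12 of 13 (-2.04 to -1.57 against 0.95 to 1.19). Macrophage and dendritic cell markers were called lower in 13 of 18 (-2.13 to -1.62 against 0.58 to 0.90) and higher in 1, Hmox1 (0.90). T cell markers were called lower in 11 of 18 (-2.71 to -1.78 against 0.67 to 0.91) and higher in 1, Cd8b1 (1.19). Both groups lack CD3 epsilon, and this list shares Cd5 and Cd28 with the B-1 and plasma cell lists, so it does not mark T cells alone. The call of Cd8b1 was lost without untreated repeat 3 and without any 1 line except 1004 and 1016, at differences from 1.13 to 1.22. Platelet markers were called lower in 6 of 9 (-1.03 to -0.70 against 0.10 to 0.33) and stromal and endothelial markers in 5 of 9 (-1.26 to -0.19 against 0.17 to 0.26).

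Several of these markers were dark in the lines. Of the genes tested, 4 T cell, 6 NK cell, 3 macrophage, 1 neutrophil, 2 erythroid, 2 platelet and 2 stromal markers were not above background on any lymphoma array, and all members of these 7 lists were above background on every untreated array. For such genes only a bound can be given: Fn1, the matrix protein fibronectin, was at least 52.5-fold lower, Vcam1 at least 34.3-fold, Tcf7 at least 21.8-fold, Klrd1 at least 18.8-fold and Icos at least 18.4-fold. The bound sets each dim array at the higher of the lowest signal well above background and the probe's own signal. S100a8, a calcium-binding protein of neutrophils (chr3:90473778-90473837), lay at -8.65, -8.15 and -7.67 in the lymphoma lines, against 1.61, 1.76 and 1.73 in untreated cells (difference -9.78 ± 0.29, adjusted p 8.2e-09). The 10 largest falls under the naming rule also held Camp (-9.03), Plbd1 (-8.94), Chil3 (-8.75), S100a9 (-8.29), Gzma (-7.87) and Anxa1 (-7.58), which are known from myeloid cells or cytotoxic lymphocytes. Anxa1 was above background on 3 of 11 lymphoma arrays, and its fitted difference ran from -9.75 to -6.51 over the alternatives.

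**Figure D3:**
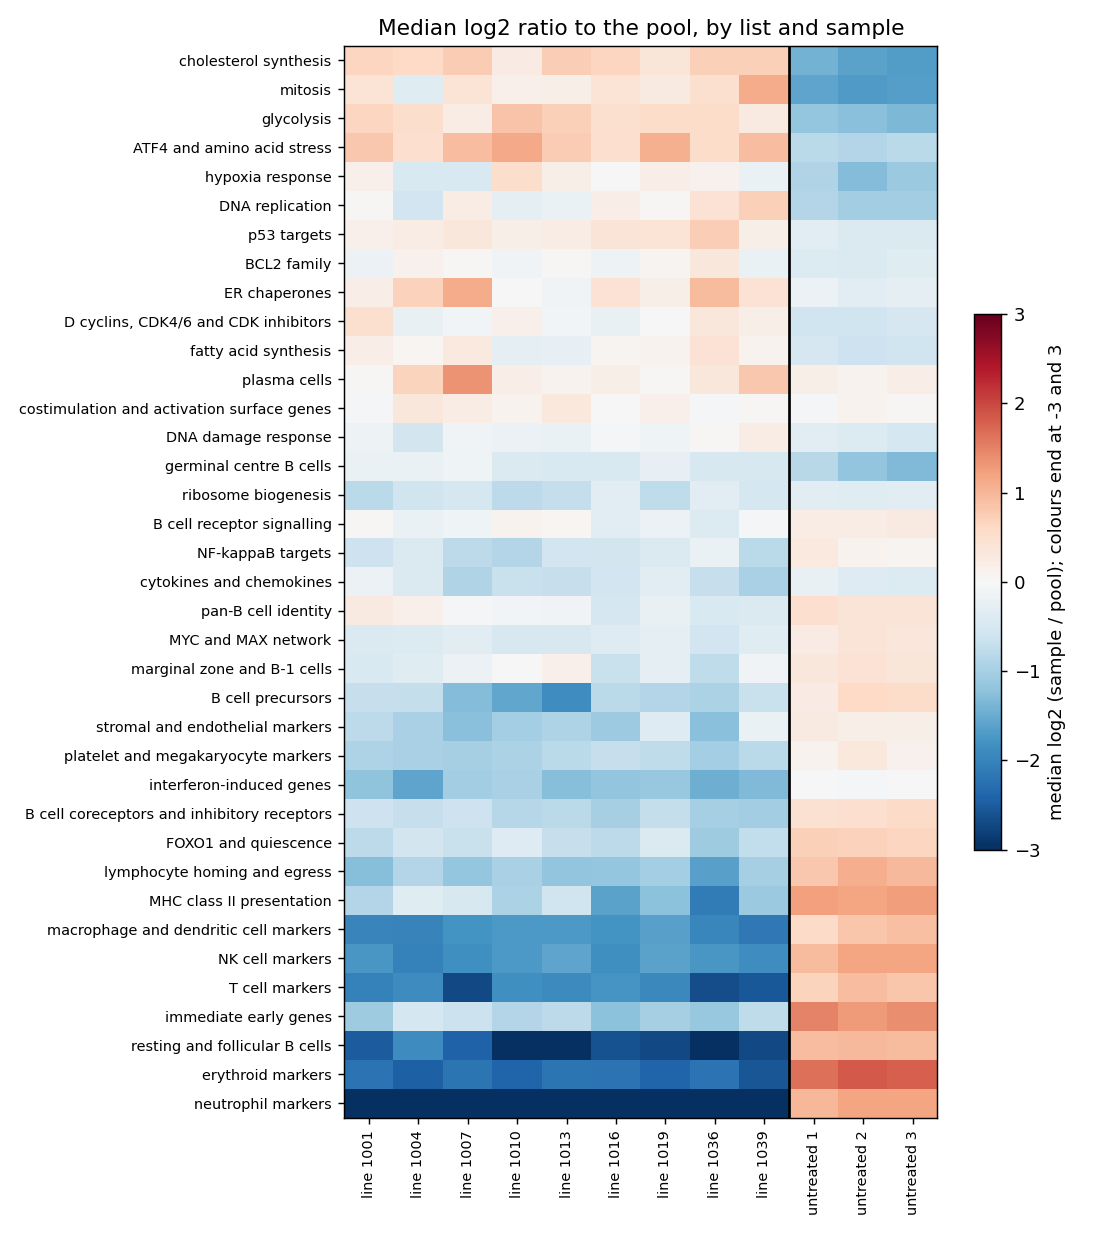
Median log2 ratio to the pool of each of 37 gene lists (rows) in the 9 lymphoma lines (left of the black line) and the 3 untreated arrays (right), on a colour scale that ends at -3 and 3. Cholesterol synthesis is red in all lines (0.26 to 0.76) and blue on all untreated arrays (-1.67 to -1.41), and neutrophil markers show the reverse.

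Immediate early genes were low in the lines. Of 25 tested, 19 were called lower and none higher, with a median difference of -2.95 (-2.76 on slide 3, -2.81 on slide 4), and 23 had every line below every untreated array. The untreated cells, which the label calls untreated and not resting, held the list's median level at 1.28 to 1.49 above the pool, although the pool included stimulated cells, while the lines held it at -1.23 to -0.52. Nr4a1, an orphan nuclear receptor that follows receptor signalling (chr15:101105071-101105130), lay at -3.87, -3.31 and -2.60 in the lymphoma lines, against 3.02, 3.39 and 3.20 in untreated cells (difference -6.47 ± 0.38, adjusted p 1e-06). Fos, a subunit of the transcription factor AP-1, lay at -3.67, -2.86 and -0.65 against 1.49, 1.64 and 1.59 (difference -4.22 ± 0.84, adjusted p 0.0038). Line 1007 was the highest for Fos and was still below the untreated arrays. Cd69, an early activation antigen, lay at -2.0, -0.72 and 0.25 against 2.47, 2.67 and 2.52 (difference -3.43 ± 0.80, adjusted p 0.0093). Rgs1 and Nr4a2 differed by -4.96 ± 1.04 and -4.59 ± 1.1 (adjusted p 0.0051 and 0.011). Egr1 did not follow, since the lines at -0.94, 0.05 and 1.93 spanned the untreated values of 0.96, 0.94 and 1.03 (difference -0.52 ± 1.09, adjusted p 0.77). Lines 1007, 1013 and 1039 lay above the untreated arrays for Egr1, at 1.93, 1.85 and 1.88.

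Feedback regulators of NF-kappaB were among the genes called lower. Of 15 targets tested, 7 were called lower and 3 higher, with a median of -0.63 (-0.56 on slide 3, -0.84 on slide 4). Tnfaip3, a ubiquitin-editing brake on NF-kappaB, lay at -1.90, -1.46 and -0.34 in the lymphoma lines, against 1.60, 1.78 and 1.81 in untreated cells (difference -3.07 ± 0.55, adjusted p 0.002). Nfkbia, the inhibitor IkappaB-alpha, differed by -2.07 ± 0.40 (adjusted p 0.0034). Il6 was called lower but was above background on 1 of 11 lymphoma arrays, so its fall has no measured size, and the fitted difference ran from -5.17 to -1.65 over the alternatives. The members called higher were Ebi3 (2.46), Bcl3 (1.21) and Cflar (1.00). Ebi3, a cytokine subunit, lay at 0.10, 1.21 and 1.58 in the lines and at -1.59, -1.43 and -1.46 in untreated cells.

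Myc, the growth regulator, was lower in every line (probe at chr15:61821417-61821476). It lay at -1.85, -1.37 and -1.03 in the lymphoma lines, against 2.02, 1.94 and 1.99 in untreated cells, and differed by -3.35 ± 0.28 (adjusted p 1.5e-05). Of 10 genes of the MYC and MAX network, 6 were called lower and 1 higher, with a median of -0.95. The median was -0.76 on slide 3, where 2 were called lower, and -1.05 on slide 4, where 5 were. Mxd1, a partner of MAX, and Mlxip, a partner of the related protein MLX, differed by -2.09 ± 0.40 and -1.40 ± 0.35 (adjusted p 0.0033 and 0.014), while Max itself did not pass (0.04 ± 0.27, adjusted p 0.93). Mxd3, a MAX partner linked to S phase, was the member called higher, at -0.35, -0.01 and 0.81 in the lines. Its untreated values were -5.07, -1.78 and -1.71, so repeat 1 stood far below repeats 2 and 3. The difference was 2.95 ± 0.40 (adjusted p 0.00035), and it was 1.84 without repeat 1 and 1.90 on slide 4 alone, where it was not called. Of 21 ribosome biogenesis genes, 3 were called lower and 1 higher, against 17.8% and 9.60% of all genes. Their median was -0.26. Without line 1001 or line 1013 the count lower was 1, as on slide 4, against 0 on slide 3. Pes1, a nucleolar factor, lay at -1.92, -1.39 and -0.54 against 0.20, 0.58 and 0.48 (difference -1.70 ± 0.37, adjusted p 0.0062), and the member called higher was Wdr12 (0.84).

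Mitotic genes were higher in the lines. Of 25 tested, 22 were called higher and none lower, with a median of 1.81, and all 25 had every line above every untreated array. The list's median level ran from -0.37 to 1.1 over the lines and from -1.71 to -1.59 over the untreated arrays, with line 1004 lowest and line 1039 highest. The median difference was 1.83 on slide 3 and 2.14 on slide 4, where 11 members were called. Ccnb1, the cyclin that drives entry into mitosis (chr13:101548722-101548781), lay at -0.15, 0.66 and 1.60 in the lymphoma lines, against -1.95, -2.02 and -2.14 in untreated cells (difference 2.71 ± 0.47, adjusted p 0.0018). Tpx2, a spindle assembly factor, lay at -0.36, 0.35 and 0.96 against -1.93, -1.90 and -2.03 (difference 2.34 ± 0.37, adjusted p 0.00092). Cenpe, a kinetochore motor, lay at -0.91, -0.13 and 1.01 against -2.36, -2.28 and -2.25 (difference 2.25 ± 0.49, adjusted p 0.0061). Top2a, which untangles sister chromatids, differed by 2.24 ± 0.37 (adjusted p 0.0013).

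Mitotic promoters are known to carry CCAAT boxes bound by NF-Y, so the promoters of 2 members are shown as RefSeq gives them for GRCm38.p6, from 250 bases before the start. The 2 were chosen among called members whose promoter held CCAAT, so their matches were fixed by the choice. Capitals mark CCAAT or its complement, and a search covered both strands. The box lies 99 and 67 bases before the start in Ccnb1 and 12 bases before it in Cenpe.
Ccnb1 (chr13:100786487-100786736, minus strand): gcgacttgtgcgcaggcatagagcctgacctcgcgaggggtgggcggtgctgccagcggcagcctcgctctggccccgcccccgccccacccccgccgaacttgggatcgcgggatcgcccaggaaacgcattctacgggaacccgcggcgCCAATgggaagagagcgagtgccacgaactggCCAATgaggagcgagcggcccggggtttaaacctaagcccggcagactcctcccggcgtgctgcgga
Cenpe (chr3:135212313-135212562, plus strand): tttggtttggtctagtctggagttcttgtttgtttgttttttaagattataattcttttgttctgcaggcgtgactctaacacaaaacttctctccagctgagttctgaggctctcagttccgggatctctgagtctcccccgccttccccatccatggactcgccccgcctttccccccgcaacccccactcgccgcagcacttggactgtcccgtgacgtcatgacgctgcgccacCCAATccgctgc
Among the listed mitotic genes with a promoter in that table, 19 of 22 held CCAAT, against 37.5% of 27025 genes. The letters TTTGAA or TTCGAA, a core of the cell cycle genes homology region, were in 9 of 22, against 19.6%. CCAAT was also in 12 of 20 replication and 10 of 15 ATF4 promoters. A match is a description of the letters and not a bound site.

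DNA replication genes were higher in part. Of 24 tested, 11 were called higher and none lower, with a median of 1.1 (1.14 on slide 3, 1.26 on slide 4). With median centring in place of loess 5 were called higher, on slide 4 alone 4, and without line 1001 or line 1007, 7. Without line 1004 or line 1039, 1 was called lower. Gins2, of the replicative helicase, lay at -0.21, 0.38 and 0.94 in the lymphoma lines, against -1.13, -1.51 and -1.38 in untreated cells (difference 1.75 ± 0.33, adjusted p 0.0031). Mcm6 and Cdc45, also of that helicase, differed by 1.67 ± 0.45 and 1.61 ± 0.38 (adjusted p 0.019 and 0.0095). Pcna, the polymerase clamp, lay at -0.86, -0.18 and 0.67 in the lines and at -0.36, -0.18 and -0.27 in untreated cells, so the groups overlapped (difference 0.04 ± 0.46, adjusted p 0.96).

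D cyclins, CDK4/6 and the inhibitors of cyclin-dependent kinases were called in both directions. Of 15 tested, 6 were called higher and 2 lower, with a median of 0.56 (0.57 on slide 3, 0.73 on slide 4). Cdkn2a, which encodes p16INK4a and p19ARF (chr4:88920405-88920464), lay at -0.30, 2.07 and 2.58 in the lymphoma lines, against -2.96, -4.14 and -4.29 in untreated cells. Lines 1013 and 1039 were lowest, at -0.30 and 0.29, and no line overlapped the untreated arrays (difference 5.28 ± 0.96, adjusted p 0.0023). A second Cdkn2a probe gave a mean of 1.01 over the lines against -0.21, -1.09 and -1.07, and was above background on none of the untreated arrays. Cdkn2b, the neighbouring p15INK4b gene (chr4:88952276-88952335), lay at 0.66, 1.60 and 2.60 against -1.51, -2.27 and -2.39 (difference 3.84 ± 0.59, adjusted p 0.00087). Cdkn1a, the p21 inhibitor (chr17:29237377-29237436), lay at 0.70, 1.06 and 2.39 against -1.63, -1.87 and -1.96 (difference 3.11 ± 0.52, adjusted p 0.0015). Cdkn1b, the p27 inhibitor of resting cells, was not called (-0.72 ± 0.48, adjusted p 0.31). Among the cyclins, Ccnd2 lay at 0.65, 1.02 and 1.71 in the lines against -0.78, -0.86 and -0.91 (difference 1.95 ± 0.41, adjusted p 0.0051), and Ccnd1 fell by 1.78 on the log2 scale (SE 0.32, adjusted p 0.0022). Ccnd1 was tested under 33 of the 34 alternatives, and its fitted difference ran from -2.48 to -1.56 over them. The kinase gene Cdk6 differed by 1.26 ± 0.27 (adjusted p 0.0065), and the other calls were Cdkn2c (1.65) and Rbl2 (-1.09).

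Targets of p53 split. Of 22 tested, 7 were called higher and 2 lower, with a median of 0.65 (0.70 on slide 3, 0.57 on slide 4). Besides Cdkn1a, Zmat3 differed by 2.72 ± 0.36 (adjusted p 0.00033), at 0.90, 1.14 and 1.99 in the lymphoma lines against -1.36, -1.45 and -1.55. Bbc3, the cell death gene PUMA, lay at 0.36, 1.06 and 1.52 in the lines against -1.19, -1.21 and -1.15 in untreated cells (difference 2.16 ± 0.39, adjusted p 0.0023). Ccng1 differed by 2.03 ± 0.34 (adjusted p 0.0013). Mdm2, the ligase that degrades p53, lay higher in all lines at -0.03, 0.35 and 0.95 against -0.22, -0.19 and -0.15, but did not pass (0.53 ± 0.30, adjusted p 0.22). The members called lower were Sesn1, which FOXO factors also control, and Btg2 (-2.13), which is also in the immediate early list. Sesn1 lay at -2.99, -1.59 and -1.46 in the lines against 1.13, 1.12 and 1.11 (difference -2.92 ± 0.45, adjusted p 0.00087). Trp53 itself was not called (-0.26 ± 0.36, adjusted p 0.65), with line 1036 at 0.44 and the other lines from -0.80 to -0.28, against 0.02, -0.37 and -0.14. Line 1036 also had the highest Cdkn1a and Zmat3 and the lowest Sesn1.

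Among 22 DNA damage response genes, 5 were called higher and 1 lower, against 9.60% and 17.8% of all genes. The median was 0.27 (0.24 on slide 3, 0.45 on slide 4). Those called higher included Lig4 (1.71), Fancd2 (1.66), Xrcc4 (0.96) and Brca1 (0.85), and the 1 called lower was Atr (-0.95). Fancd2, of the Fanconi anaemia pathway of crosslink repair, lay at -0.32, 0.62 and 1.35 in the lymphoma lines, against -0.68, -1.40 and -1.37 in untreated cells (SE 0.44, adjusted p 0.018). Lig4, the ligase of end joining, lay at -0.34, 0.87 and 1.81 against -0.90, -1.01 and -1.14 (SE 0.56, adjusted p 0.046). Against untreated repeat 1 alone 2 were called higher, as on slide 4, 3 were on slide 3, and without untreated repeat 3 or without line 1001, 1007, 1016 or 1036, 3 were. The difference of Atr was not called without untreated repeat 2 or 3 or without line 1001, 1007, 1013, 1019, 1036 or 1039 (-0.98 to -0.90). That of Lig4 was not called without untreated repeat 3 or without line 1001, 1004, 1007, 1016, 1019 or 1036 (1.65 to 1.76).

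Of 12 BCL2 family genes, 4 were called higher and none lower, with a median of 0.59 (0.49 on slide 3, 0.48 on slide 4). Within slides 1 was called higher on slide 3, and 2 higher and 1 lower on slide 4. The 4 were Bbc3 (2.16), Bid (1.20), Bcl2l2 (1.13) and Bad (0.61). Bcl2, the survival gene, lay at -0.61, -0.10 and 0.97 in the lymphoma lines and at 0.98, 0.89 and 0.86 in untreated cells. Line 1036 reached the untreated level at 0.97, and the difference of -0.90 ± 0.51 was not called (adjusted p 0.23). Mcl1 was not called either (-0.40 ± 0.24, adjusted p 0.26).

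Cholesterol synthesis had the highest median of the 37 lists. Of 22 genes tested, 20 were called higher and none lower, with a median of 2.26, and 21 had every line above every untreated array. Within slides the median was 2.08 on slide 3 and 2.28 on slide 4. Sqle, squalene epoxidase (chr15:59162688-59162747), lay at 0.14, 0.56 and 0.93 in the lymphoma lines, against -2.49, -2.57 and -2.49 in untreated cells (difference 3.08 ± 0.24, adjusted p 8.8e-06). Msmo1 and Cyp51, which remove methyl groups of lanosterol, differed by 2.97 ± 0.27 and 2.96 ± 0.28 (adjusted p 2.6e-05 and 3.1e-05). The 2 not called were Ebp (0.45) and Pmvk (0.62).

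Promoters of this pathway are known to pair sterol response elements with CCAAT boxes, so those of Msmo1 and Cyp51 are shown on the same terms, with CCAAT or its complement in capitals. Both were again chosen among called members whose promoter held CCAAT. The box lies 160, 96 and 55 bases before the start in Msmo1 and 29 bases before it in Cyp51.
Msmo1 (chr8:64733579-64733828, minus strand): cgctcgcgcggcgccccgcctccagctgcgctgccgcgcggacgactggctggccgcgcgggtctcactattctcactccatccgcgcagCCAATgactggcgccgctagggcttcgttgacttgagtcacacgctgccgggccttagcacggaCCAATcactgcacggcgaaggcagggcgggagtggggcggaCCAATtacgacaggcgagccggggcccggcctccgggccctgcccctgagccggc
Cyp51 (chr5:4104698-4104947, minus strand): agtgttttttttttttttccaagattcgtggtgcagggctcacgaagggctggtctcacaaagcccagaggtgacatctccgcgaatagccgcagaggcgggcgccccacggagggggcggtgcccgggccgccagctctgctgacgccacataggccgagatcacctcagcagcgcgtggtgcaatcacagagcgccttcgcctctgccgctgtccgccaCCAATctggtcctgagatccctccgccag
All 16 listed cholesterol genes with a promoter in the table held CCAAT, against 37.5% of all genes.

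Fatty acid genes were called in both directions. Of 12 tested, 3 were called higher and 1 lower, with a median of 0.49 (0.35 on slide 3, 0.40 on slide 4). Scd2, a desaturase, lay at 0.42, 1.26 and 1.59 in the lymphoma lines, against -2.21, -2.31 and -2.28 in untreated cells (difference 3.45 ± 0.39, adjusted p 0.00013). Fads1, which desaturates polyunsaturated fatty acids, differed by 2.23 ± 0.24 (adjusted p 7.9e-05), and its neighbour Fads2 by 2.18 ± 0.74 (adjusted p 0.052). Fads2 was called without untreated repeat 1, line 1016 or line 1039 (2.42, 2.39 and 2.05). The other call higher was Acsl3 (1.58), and the call lower was the elongase Elovl5 (-0.99). No member was called lower within either slide.

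Glycolytic genes were higher. Of 16 tested, 11 were called higher and 1 lower, with a median of 1.72 (1.70 on slide 3, 2.03 on slide 4). Tpi1, triosephosphate isomerase (chr6:124760947-124761006), was tight within both groups at 0.23, 0.57 and 0.82 in the lymphoma lines against -2.71, -2.83 and -2.88 in untreated cells (difference 3.38 ± 0.20, adjusted p 1e-06). Pfkp, a phosphofructokinase, lay at 0.03, 0.41 and 0.91 against -2.06, -2.34 and -2.30 (difference 2.65 ± 0.27, adjusted p 6.3e-05). Gapdh differed by 1.64 ± 0.21 (adjusted p 0.00025), so it was not level between these groups. Pgk1 differed by 3.01 ± 0.36 (adjusted p 0.00016), but the array design places this probe on chromosome 3 of mm9, so it may read a related copy. The member called lower was the glucose transporter gene Slc2a3, at -2.48, -1.28 and -0.31 in the lines against 0.56, 0.70 and 0.60 in untreated cells (difference -1.89 ± 0.61, adjusted p 0.043). That call was lost without line 1004, 1007, 1013, 1016, 1036 or 1039, at -1.90 to -1.84, and on either slide alone. The letters ACGTG or GCGTG, the core of hypoxia response elements, were in 14 of 16 glycolytic promoters, against 41.5% of all genes. Other lists were above that share too, with 15 of 22 mitotic, 13 of 20 replication, 10 of 16 cholesterol and 10 of 15 ATF4 promoters.

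Hypoxia response genes did not move as one. Of 13 tested, 4 were called higher and 1 lower, with a median of 1.28 (1.22 on slide 3, 1.51 on slide 4). Bnip3, a mitophagy receptor (chr7:146082760-146082819), lay at -0.14, 0.95 and 1.98 in the lymphoma lines, against -3.67, -3.44 and -3.60 in untreated cells (difference 4.48 ± 0.56, adjusted p 0.00023). Ankrd37 lay at -1.35, -0.43 and 0.83 against -3.21, -3.46 and -3.43 (difference 3.02 ± 0.73, adjusted p 0.011). Egln3, an oxygen-sensing hydroxylase, split the lines. Lines 1004, 1016, 1019 and 1036 lay at 1.94, 2.30, 2.31 and 1.92, and lines 1007, 1013 and 1039 at -3.07, -2.46 and -3.04, close to the untreated -2.36, -3.04 and -3.11 (difference 2.74 ± 2.17, adjusted p 0.4). Lines 1001 and 1010 lay between, at -0.72 and -0.02. The others called higher were Ero1a (1.47) and Higd1a (1.28). Car9 was called lower but was above background on 1 of 11 lymphoma arrays, so its fall has no measured size. Its fitted difference ran from -3.28 to -0.74 over the alternatives, and its call was lost under 2 of them.

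Amino acid stress genes that ATF4 controls were higher in part. Of 14 tested, 8 were called higher and 1 lower, with a median of 1.47 (1.48 on slide 3, 1.46 on slide 4). Trib3, a pseudokinase of this response (chr2:152163161-152163220), lay at 0.54, 1.57 and 3.87 in the lymphoma lines, against -2.38, -2.79 and -2.98 in untreated cells (difference 4.62 ± 0.95, adjusted p 0.0046). Chac1, which degrades glutathione, lay at -0.29, 2.04 and 3.12 against -2.36, -2.48 and -2.62 (difference 4.17 ± 1.05, adjusted p 0.014). Mthfd2, a mitochondrial one-carbon enzyme, differed by 3.38 ± 0.38 (adjusted p 0.00011), and asparagine synthetase, Asns, by 2.53 ± 0.60 (adjusted p 0.01). Line 1010 was the highest of the lines for Trib3, Chac1, Mthfd2 and Asns, at 3.87, 3.12, 2.24 and 2.60, and line 1036 was lowest for Trib3 and Chac1. Atf4 RNA was not called (0.23 ± 0.28, adjusted p 0.59). The member called lower was Cebpb, at -1.26, -0.71 and 0.60 in the lines against 1.39, 1.46 and 1.65 (difference -2.16 ± 0.52, adjusted p 0.011). Among the 10 largest rises under the naming rule, Cth (4.56 ± 0.47, adjusted p 6.5e-05) and Bcat1 (4.72 ± 0.79, adjusted p 0.0014) also encode enzymes of amino acid metabolism.

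ER chaperones were not called in a stable number. Of 16 tested, 4 were called higher and 1 lower, with a median of 0.58 (0.49 on slide 3, 0.46 on slide 4). The 4 were Xbp1 (1.93), Pdia6 (1.36), Pdia3 (1.13) and Canx (0.58), and the 1 was Dnajb9 (-1.28). Against untreated repeat 1 alone 1 was called higher, and on either slide alone none was. Without any 1 line except 1013 the count was at most 2, and without line 1019 it was 0. Hspa5, the main chaperone BiP, was not called (-0.08 ± 0.47, adjusted p 0.93).

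Germinal centre genes moved both ways. Of 24 tested, 7 were called higher and 7 lower, with a median of -0.12 that changed sign between alternatives (-0.34 to 0.40). It was -0.34 on slide 3 and -0.03 on slide 4, where 4 were called lower. Rgs13, a signalling brake of germinal centre B cells (chr1:145985824-145985883), lay at -0.05, 1.30 and 1.97 in the lymphoma lines, against -3.63, -3.64 and -3.62 in untreated cells (difference 4.83 ± 0.60, adjusted p 0.00022). Mef2b, a transcription factor, lay at -0.07, 0.63 and 1.00 against -2.57, -2.80 and -2.87 (difference 3.24 ± 0.38, adjusted p 0.00015). Fas, a death receptor, differed by 3.08 ± 0.30 (adjusted p 3.9e-05). Bcl6, the master repressor of the germinal centre, was above the untreated arrays in every line but was not called (1.45 ± 0.94, adjusted p 0.3). Lines 1010 and 1013 held it at 2.43 and 2.57 and the other lines between -0.31 and 0.70, against -0.67, -0.63 and -0.63 in untreated cells. Irf8, which is also a germinal centre regulator, lay at -3.41, -2.57 and -2.0 in the lines against 0.37, 0.37 and 0.31 (difference -3.05 ± 0.45, adjusted p 0.00066).

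Plasma cell genes were divided as well, with 3 called higher and 3 lower of 14 and a median of 0.36 that ranged from -0.05 to 0.49 over the alternatives (0.06 on slide 3, 0.26 on slide 4). Derl3 and Mzb1, which serve antibody secretion, differed by 2.53 ± 0.56 and 2.09 ± 0.38 (adjusted p 0.007 and 0.0023). Xbp1, the secretory regulator, lay at -0.12, 1.02 and 2.01 in the lymphoma lines against -0.91, -0.75 and -0.80 in untreated cells (difference 1.93 ± 0.60, adjusted p 0.036), and the call was lost without line 1010 or 1019 (1.93 and 1.94). Irf4 lay at -0.45, 0.19 and 0.76 against 1.48, 1.46 and 1.37 (difference -1.26 ± 0.41, adjusted p 0.042). Its call was lost without line 1001, 1013, 1016, 1019 or 1039, at differences from -1.27 to -1.21. Prdm1, the plasma cell repressor Blimp-1, was not called (-0.29 ± 0.97, adjusted p 0.86), and lay at 2.72 in line 1007 and between -0.60 and 1.31 in the others, against 0.67, 0.91 and 0.81. The other calls lower were Cd28 (-3.92) and Tnfrsf17 (-2.46), and Cd28 is also in the T cell list.

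Marginal zone and B-1 genes were called in both directions. Of 16 tested, 5 were called lower and 4 higher, with a median of -0.95 (-0.92 on slide 3, -0.96 on slide 4). Without line 1001 the counts were 4 lower and 5 higher, without line 1007 or with the scanner's log ratio 4 each, and on slide 3 alone 5 each. Plac8 differed by -7.48 ± 0.75 (adjusted p 5.4e-05), Cd1d1, which presents lipids, by -5.64 ± 0.54 (adjusted p 3.8e-05), and Cd5, which T cells also carry, by -5.24 ± 0.36 (adjusted p 3.6e-06). The others called lower were Spn (-3.55) and Notch2 (-2.38). Zbtb32, a repressor of memory B cells, lay at 0.23, 1.44 and 1.91 in the lymphoma lines against -2.94, -3.02 and -2.96 in untreated cells (difference 4.26 ± 0.53, adjusted p 0.00023), and Cd9 (2.26), Mzb1 (2.09) and Ahnak (0.76) were also called higher. Of 16 precursor genes, 9 were called lower and none higher, with a median of -1.05 (-1.08 on slide 3, -0.98 on slide 4). That median was -2.92 with the scanner log ratio, median centred, and -3.06 with the deposited log ratios, median centred. Cd93 differed by -5.66 ± 0.24 (adjusted p 1.1e-07) and Vpreb3 by -4.88 ± 0.83 (adjusted p 0.0015), and Sox4, at -4.07 ± 0.53 (adjusted p 0.0003), was above background on 5 of 11 lymphoma arrays. The fitted difference of Sox4 ran from -6.12 to -3.10 over the alternatives.

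Genes of MHC class II presentation, by which B cells show antigen to helper T cells, were low. Of 11 tested, 8 were called lower and none higher, with a median of -2.27 (-2.73 on slide 3, -2.28 on slide 4), and 10 had every line below every untreated array. The median level ran from -2.09 to -0.36 over the lines and from 1.19 to 1.25 over the untreated arrays. H2-Ab1, a class II beta chain (chr17:34406296-34406355), lay at -1.84, -0.99 and -0.45 in the lymphoma lines, against 1.62, 1.92 and 1.75 in untreated cells (difference -2.85 ± 0.52, adjusted p 0.0025). H2-Aa, its alpha chain, lay at -2.09, -0.95 and 0.21 against 1.48, 1.28 and 1.25 (difference -2.27 ± 0.64, adjusted p 0.023). H2-Oa, which restrains peptide loading, differed by -3.70 ± 0.71 (adjusted p 0.0032), and Ifi30, a lysosomal reductase, by -2.95 ± 0.52 (adjusted p 0.002). Line 1036 was lowest and line 1004 highest for H2-Aa, and the same 2 lines were the extremes for H2-Ab1. Cd74, the invariant chain, lay at -0.84 to 0.32 in 8 lines and at 1.48 in line 1004, against 1.5, 1.76 and 1.62, and was not called (-1.76 ± 0.69, adjusted p 0.085). It was called without line 1004 (-1.96). Ciita, the class II transactivator, was not called (-0.48 ± 0.20, adjusted p 0.11). It was tested under 33 of the 34 alternatives and called under 4 of them, with fitted differences from -1.12 to -0.22. Macrophages and dendritic cells also carry class II genes, and the part of their markers, given above, in these values was not tested.

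Costimulatory genes went in opposite directions. Of 19 tested, 6 were called lower and 5 higher, with a median of 0.29 that ranged from -0.12 to 0.46 over the alternatives (-0.03 on slide 3, 0.06 on slide 4). Icosl, the ligand for ICOS on helper T cells (chr10:77542211-77542270), lay at -5.21, -4.72 and -4.36 in the lymphoma lines, against 1.31, 1.32 and 1.43 in untreated cells (difference -6.12 ± 0.25, adjusted p 7.5e-08). Cd83 lay at -2.21, -1.64 and -1.32 against 1.96, 2.11 and 1.90 (difference -3.69 ± 0.29, adjusted p 8.6e-06). Pdcd1lg2, the PD-1 ligand PD-L2, split over the lines at -3.88, -1.97 and -1.16 against 1.05, 1.30 and 1.29 (difference -3.49 ± 1.00, adjusted p 0.025). Cd80, a ligand of CD28, lay at 1.22, 1.67 and 1.97 in the lines against -1.64, -2.16 and -2.33 in untreated cells (difference 3.72 ± 0.25, adjusted p 3.2e-06). Cd86, the other ligand of CD28, overlapped at -1.19, -0.07 and 0.63 against 0.12, 0.18 and 0.23 (difference -0.39 ± 0.66, adjusted p 0.71). Cd70, the ligand of CD27, lay at -0.62, 0.51 and 1.83 against -3.18, -3.43 and -3.42 (difference 3.85 ± 0.62, adjusted p 0.0011). Havcr1, the receptor TIM-1, differed by 3.34 ± 0.19 (adjusted p 1e-06).

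Cytokine and chemokine genes were called lower in 5 and higher in 3 of 15, with a median of -0.74 (-0.56 on slide 3, -0.71 on slide 4). Ccl3, which attracts T cells and myeloid cells, differed by -2.55 ± 0.51 (adjusted p 0.0038). Ccl4, a chemokine of the same family, was above background on 1 of 11 lymphoma arrays and on every untreated array, so its fall has no measured size. Its fitted difference ran from -9.27 to -6.21 over the alternatives. Cxcl10, an interferon-induced chemokine, lay at -3.47, -2.93 and -2.27 in the lymphoma lines against 0.49, 1.00 and 0.84 in untreated cells (difference -3.62 ± 0.35, adjusted p 3.7e-05). It was above background on 5 of 11 lymphoma arrays, and its fitted difference ran from -5.59 to -3.31 over the alternatives. Il6 and Ccl17 (-0.86) were the other 2. Il10, an anti-inflammatory cytokine, lay at -0.02, 1.43 and 3.08 in the lines against -1.08, -1.32 and -1.29 (difference 2.76 ± 0.82, adjusted p 0.029). Tnfsf9, the ligand of 4-1BB, differed by 2.95 ± 0.46 (adjusted p 0.00085), and the last was Ebi3.

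Interferon-induced genes were low in the lines. Of 22 tested, 15 were called lower and none higher, with a median of -1.28. On each of slides 3 and 4 alone 8 were called lower, with medians of -1.23 and -1.22. The median level ran from -1.59 to -0.97 over the lines and from -0.06 to 0.01 over the untreated arrays. Oas1a, an antiviral RNA sensor (chr5:121346735-121346794), lay at -4.51, -4.29 and -2.61 in the lymphoma lines, against 0.43, 0.58 and 0.73 in untreated cells (difference -4.63 ± 0.56, adjusted p 0.00018). Ifit3 lay at -2.74, -2.01 and -1.41 against -0.17, -0.10 and -0.16 (difference -1.95 ± 0.38, adjusted p 0.0037). Oasl1 differed by -3.36 ± 0.29 (adjusted p 1.9e-05), and Xaf1, above background on 7 of 11 lymphoma arrays, by -5.29 ± 0.17 (adjusted p 1.5e-08). The fitted difference of Xaf1 ran from -7.04 to -2.63 over the alternatives. Mx1 lay above the untreated arrays in every line, at -0.42, 0.88 and 2.03 against -0.75, -0.52 and -0.62, and was not called (1.61 ± 0.75, adjusted p 0.15).

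Promoters of these genes are known for interferon-stimulated response elements, so those of Oas1a and Ifit3 are shown, with GAAANNGAA or its complement in capitals. Both were chosen among called members whose promoter held these letters, so their matches were fixed by the choice. The element lies 20 and 14 bases before the start in Oas1a, where 2 matches overlap, and 155, 121 and 102 bases before it in Ifit3.
Oas1a (chr5:120907526-120907775, minus strand): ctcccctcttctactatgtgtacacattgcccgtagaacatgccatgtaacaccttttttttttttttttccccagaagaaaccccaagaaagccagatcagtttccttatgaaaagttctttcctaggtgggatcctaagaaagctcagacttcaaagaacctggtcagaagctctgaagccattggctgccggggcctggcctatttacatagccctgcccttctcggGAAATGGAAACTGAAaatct
Ifit3 (chr19:34583279-34583528, plus strand): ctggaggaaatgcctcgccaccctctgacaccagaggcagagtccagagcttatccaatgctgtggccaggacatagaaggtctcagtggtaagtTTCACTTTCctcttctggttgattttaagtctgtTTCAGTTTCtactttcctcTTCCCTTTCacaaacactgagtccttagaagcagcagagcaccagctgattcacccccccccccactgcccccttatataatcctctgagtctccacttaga
Of the listed interferon genes with a promoter in the table, 9 of 16 held it, against 8.18% of all genes.

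Genes that no list holds also stood among the 10 largest rises under the naming rule, among them Plch2, Serpinc1, Trim12a and Cd109. Plch2, a phospholipase C gene, differed most, at -0.98, 2.51 and 3.75 in the lymphoma lines against -4.69, -5.14 and -5.27 in untreated cells, with line 1001 lowest (difference 7.03 ± 1.31, adjusted p 0.0027). Serpinc1, which encodes antithrombin, lay at 0.01, 1.5 and 1.90 against -4.46, -5.42 and -5.48 (difference 6.37 ± 0.56, adjusted p 2.2e-05). Trim12a lay at 0.45, 0.84 and 1.64 against -3.75, -4.62 and -4.78 (difference 5.33 ± 0.39, adjusted p 5.5e-06). Cd109, a surface protein that binds TGF-beta, lay at 0.14, 2.38 and 3.74 against -2.03, -3.37 and -3.44, and was above background on 2 of 3 untreated arrays (difference 5.25 ± 1.09, adjusted p 0.0049).

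**Figure D4:**
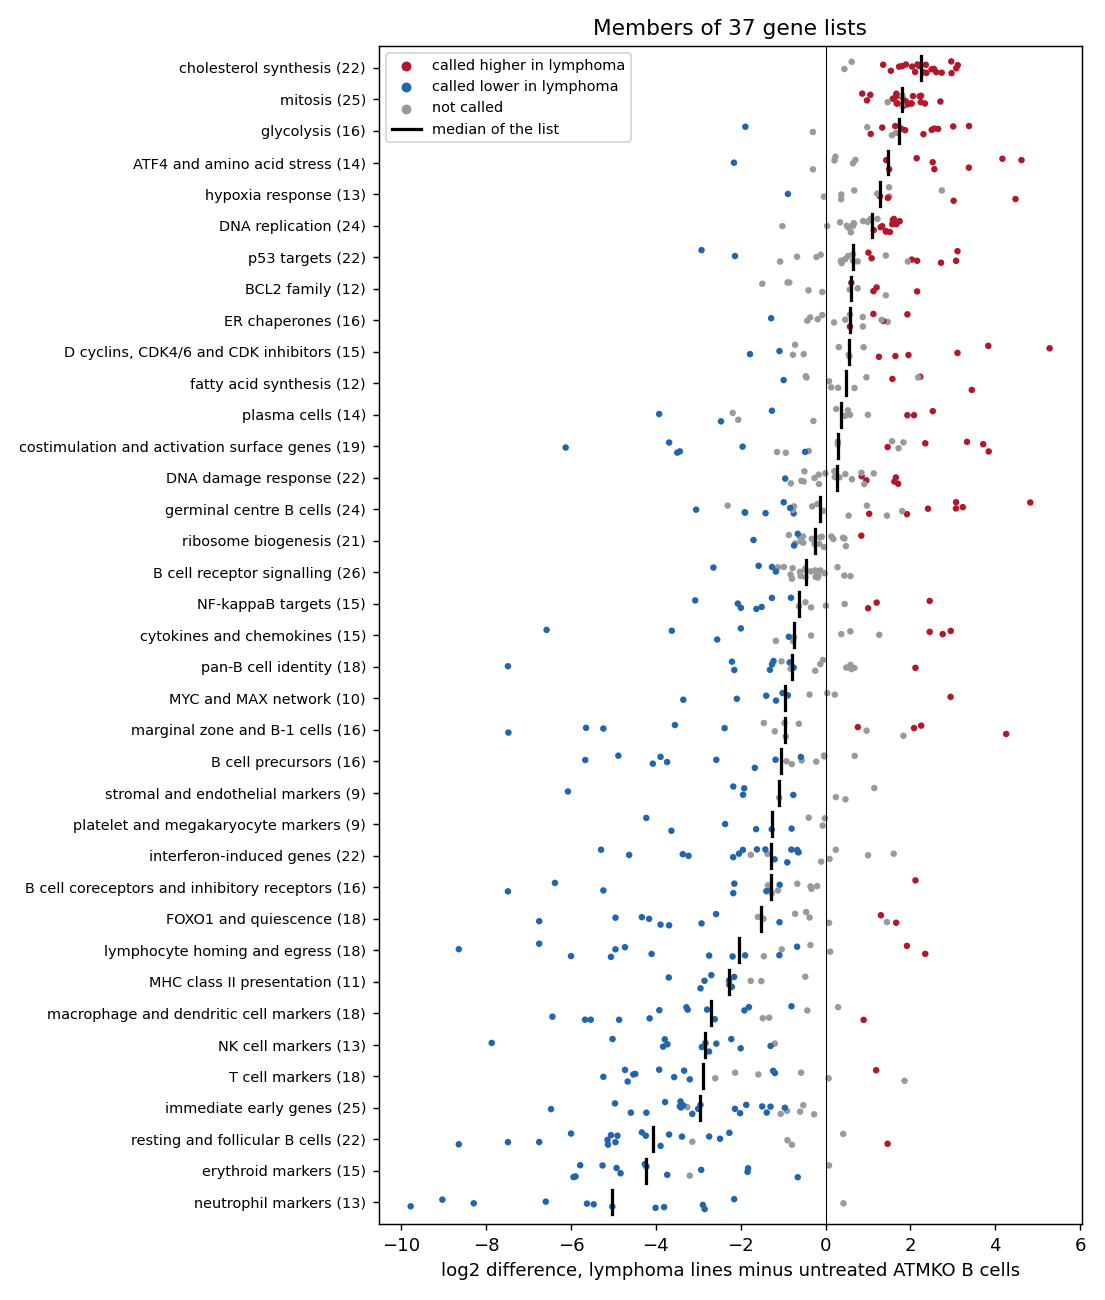
Log2 difference (lymphoma lines minus untreated ATMKO B cells) on the horizontal axis for each tested member of 37 gene lists, with the number tested in brackets, red for members called higher, blue for members called lower, grey for members not called, and a black bar at the median. The medians run from 2.26 for cholesterol synthesis to -5.03 for neutrophil markers.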

How the data were processed

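RNA of the lymphoma lines and of the untreated cells was hybridised to 2-colour Agilent arrays (probe positions on mm9) against the common pool. Per the file headers, the deposited scanner files came from Feature Extraction 10.1.1.1, while the submitters' processing notes name Agilent Feature Extraction 9.1 and limma. The files hold spot intensities and a log10 ratio of red over green, which the scanner software background-subtracted and dye-normalised, per the file headers. For spots well above background in both channels, the deposited value table holds the same log10 ratios to within 0.0005. The other spots were not compared. The deposited table was used as an alternative. Its column medians ran from -0.087 to 0.007 on the log10 scale, so it was not centred.

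Intensities were read in R 4.3.3 with limma 3.58.1, corrected with normexp (offset 50) and normalised by loess within each array, which gave the log2 ratios used here from the deposited intensities. Control and outlier spots had weight 0 and were left out, spots of a probe were averaged, and a probe stayed if red or green rose well over background on a share of 0.5 or more of the 14 arrays. The brightest probe stood for a gene. Accessions matched RefSeq symbols (GRCm38.p6 table) for 27235 of 55681 probes (48.9%), and the others kept the name of the array design. Repeats were averaged, 9 lines were fitted against 1 untreated sample with 8 residual degrees of freedom, and p-values were adjusted by Benjamini-Hochberg over all 21436 genes. 179 genes were dropped for a missing value. The script was tested on simulated data. The number of arrays limits the precision. No column of another series was used.

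The members and the 37 lists (612 genes, 578 tested) were chosen with earlier results of these data known. Of the 184 genes whose alternatives were followed, 142 came from a rule. The rule took Atm and Cd3e, and the 10 largest called differences in each direction among genes that passed a filter. Such genes had a RefSeq symbol and all lines on the same side of all untreated arrays. They were above background on every array of the higher group and at least 1 of the lower. From each list came the 3 members with the largest difference in the direction most called members took, called or not. The member with the largest called difference in the other direction was taken as well. The rule also took Myc, Irf4, Bcl6, Prdm1, Ccnd2, Bcl2, Cd44, Btk, Cdkn2a and Trp53. The other 42, and list members named as the only ones called, were added after their values were seen. Alternatives changed the background correction, normalisation, filter, probe rule, repeats, lines, slides and blocks. Figures were drawn with matplotlib 3.10.9. Some genes are not reported here.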

Additional observations from a re-analysis of the deposited data

Results flagged for a closer look

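Among the 184 followed genes, a line was singled out where its gap to the nearest other line was larger, relative to the range of the 9 lines, than Dixon's critical value allows, which chance gives in about 1 of 20 genes. This was so for 18 genes. Line 1010 stood highest for Ccr7 (-4.57, next -6.04), Fas (1.33, next 0.71), Mthfd2 (2.24, next 1.51) and Cebpb (0.60, next -0.39). Line 1036 stood lowest for Lilrb4a (-6.18, next -5.52) and Sesn1 (-2.99, next -1.93) and highest for Fn1 (-3.55, next -4.54) and Trp53 (0.44, next -0.28). Line 1004 stood highest for Cd74 (1.48, next 0.32) and Bach2 (-2.46, next -5.14) and lowest for Gzma (-6.63, next -5.98). Line 1016 stood highest for Sox4 (-1.47, next -2.70) and Vav3 (-1.62, next -2.55). Line 1019 stood highest for Ccl3 (-1.04, next -2.16) and lowest for Hba-a1 (-5.37, next -4.13). The last 3 were Oas1a in line 1007 (-2.61, next -3.79), Vwf in line 1013 (-1.0, next -1.46) and Havcr1 in line 1039 (1.61, next 1.32), each the highest. All values are log2 ratios to the pool, and Fn1 was not above background on any lymphoma array.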

How the results depend on the processing

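The count of called genes, 5865 (2057 higher, 3808 lower), moved by over 1.5 times under a few of the 34 alternatives. With every array as a sample of its own it was 11486 (5116 higher, 6370 lower). With the slide as a block, and again every array as a sample, it was 11039 (4840 higher, 6199 lower). The slide block was not fitted with repeats averaged, so its count is to be read beside 11486 and not beside 5865. Within slide 3 alone it was 3864 (1244 higher) and within slide 4 alone 3631 (1228 higher, 2403 lower), where fewer lines were fitted. With the replicate number as a block, over lines 1001 and 1010 and untreated repeats 1 and 2, it was 10210 (4484 higher, 5726 lower). Every array was a sample of its own there too. These repeats share only a number, and the labels name nothing that pairs them. Scaling between arrays, an alternative chosen after seeing the data, called 3257 higher. Leaving out 1 line at a time gave 5446 to 6035 (1896 to 2167 higher, 3550 to 3868 lower), and leaving out 1 untreated repeat gave 5762 to 6263. Aquantile between arrays left the ratios as they were. Of 156 called genes followed, 108 stayed called under every alternative and 48 were lost under at least 1, 18 of 28 not called were gained under at least 1, and none reversed. The list median kept its sign in 34 of 37 lists, the exceptions being the germinal centre, plasma cell and costimulation lists. With the anti-IgM ATMKO samples fitted as a further group, 6 interferon-induced genes were called lower, 6 glycolytic genes higher and 1 hypoxia gene higher, and the cause was not tested. Levels near background limit the falls of genes dark in the lines to a bound.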
